A study of Lytechinus variegatus with 8 samples.

Results

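Kin of IRRE-like proteins are cell surface adhesion proteins with a row of immunoglobulin domains outside the cell. In Drosophila, Kirre (also called Dumbfounded) and Roughest pair across cell contacts with Sticks and stones and Hibris, the fly relatives of nephrin, and this pairing brings myoblasts together before they fuse. In the kidney, the mammalian relatives Neph1 and nephrin meet in the junction between podocytes. In the sea urchin embryo a Kirrel-like protein is needed for the fusion of the skeletogenic cells, whose shared cytoplasm lays down the calcite skeleton, and spines of the adult are built of calcite by cells of a related kind.

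Of 26814 genes in the deposited count table of the sea urchin Lytechinus variegatus, 7 carry the product name kin of IRRE-like. The genes described here are 2 of them, LOC121413957 (kin of IRRE-like 2) and LOC121420391 (kin of IRRE-like 1). They were taken by gene name and selected on the difference between their secondary and primary levels, which was already known, so their levels and fold changes are given as a description, with no test. Which of the 7 genes corresponds to the embryonic fusion protein is not given in the files. As context, 40 other genes carry kin of IRRE, nephrin or hemicentin in their description, either as the product name or as the Swiss-Prot match of the deposited table. Hemicentins are large matrix proteins with many immunoglobulin domains.

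Messenger RNA was sequenced from secondary spines (100 spines a library, 4 libraries) and primary spines (50 spines a library, 4 libraries) of 4 wild-caught animals of the white-and-green color morph, labelled wild type. Secondary and primary libraries of 1 number were taken to come from the same animal. Each library pools many spines, and no separation of their tissues is stated. In such bulk samples fewer cells of a type and less RNA per cell cannot be told apart. Libraries held 9252184 to 10902546 counted reads. Levels of 1 gene across libraries are given as CPM (counts scaled to a common library size with TMM factors), and levels of different genes are compared as the authors' FPKM, which are per length. Log2 fold changes are secondary minus primary, from a fit across 16788 genes, with standard errors after ±.

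LOC121413957 lies on chromosome 4, from 36390625 to 36400991 on the plus strand of assembly Lvar_3.0. It spans 10367 bases, with 4193 bases of exon, so introns make up the rest. The deposited table gives it an immunoglobulin domain and no Swiss-Prot match. In secondary libraries 1 to 4 it had 1094, 611, 1046 and 939 reads, against 257, 116, 219 and 75 reads in primary libraries 1 to 4. As CPM these were 106, 62.1, 104 and 82.5 in secondary spines, against 27.6, 11.6, 23.1 and 8.01 in primary spines. The lowest secondary library stood above the highest primary library. The mean was 88.6 ± 20.6 CPM in secondary and 17.6 ± 9.30 CPM in primary spines (SD, n = 4 each), a log2 fold change of 2.33 ± 0.40. Within animals 1 to 4 the ratio of secondary over primary CPM was 3.84, 5.37, 4.50 and 10.3. Animal 4 had the largest ratio, and its primary library held the lowest of the 8 values. Without that primary library the log2 fold change was 2.09.

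LOC121420391 lies on chromosome 8, from 33174360 to 33185334 on the minus strand, a span of 10975 bases with 4645 bases of exon. The deposited table gives it V-set and I-set immunoglobulin domains and matches it to the Drosophila protein Roughest, the adhesion protein named in the background above. It had 1091, 1395, 1215 and 1040 reads in secondary libraries 1 to 4, against 418, 661, 463 and 223 reads in primary libraries 1 to 4. As CPM these were 106, 142, 121 and 91.4 in secondary spines, against 45.0, 65.9, 48.8 and 23.8 in primary spines. The groups again did not overlap. Among all tested genes the groups did not overlap, with secondary spines higher, for 9.47%, and with secondary spines lower for 5.69%. Nothing is read from these shares because the contrast chose the genes. The mean was 115 ± 21.6 CPM in secondary and 45.9 ± 17.3 CPM in primary spines (SD, n = 4 each), a log2 fold change of 1.32 ± 0.29. Within animals 1 to 4 the ratio of secondary over primary CPM was 2.35, 2.15, 2.47 and 3.83, with animal 4 again the largest. Without primary library 4 the log2 fold change was 1.11.

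The 2 genes did not rank the animals alike. Animal 2 had the highest level of LOC121420391 in both kinds of spine, and in its secondary spines the lowest level of LOC121413957. Per length, LOC121413957 over LOC121420391 gave FPKM ratios of 1.11, 0.485, 0.954 and 1.00 in secondary libraries 1 to 4, against 0.681, 0.194, 0.524 and 0.373 in primary libraries 1 to 4. In every animal the ratio was higher in secondary spines, and in both kinds of spine animal 2 had the lowest ratio. Across the 8 libraries log2 CPM of the 2 genes correlated at 0.849, and their deviations from the group means at 0.306. Both values are descriptions over libraries that share 4 animals.

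**Figure D1:**
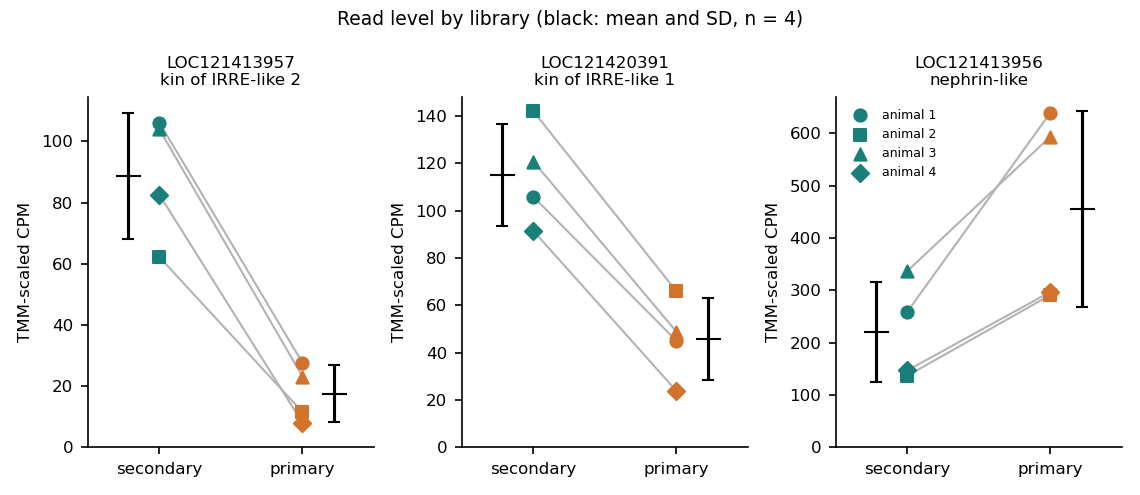
Level of LOC121413957, LOC121420391 and the nephrin-like gene LOC121413956 in TMM-scaled CPM (y axis) in secondary and primary spines, with 1 point a library, the shape marking the animal, grey lines joining libraries of 1 animal, and black marks for the mean and SD (n = 4). The 2 kin of IRRE-like genes sit higher in the secondary library of every animal, LOC121413957 at 62.1 to 106 against 8.01 to 27.6 CPM, while LOC121413956 sits lower there in every animal.

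In the order of mean FPKM within the family, both genes stood higher in secondary than in primary spines. Of the 42 family genes ordered by mean FPKM in secondary spines, LOC121420391 was number 5 at 24.3 ± 4.61 FPKM and LOC121413957 number 6 at 20.8 ± 4.74 FPKM (SD, n = 4), and their ranges overlapped. In primary spines LOC121420391 was number 8 at 9.79 ± 3.72 FPKM and LOC121413957 number 13 at 4.16 ± 2.21 FPKM, and each overlapped with the genes next to it in the order. Among all 16788 tested genes, the mean FPKM of LOC121413957 was above that of 86.6% of genes in secondary and 44.6% in primary spines. For LOC121420391 these shares were 89.0% in secondary and 69.9% in primary spines. Above both genes in both kinds of spine stood 4 others, the nephrin-like LOC121413956 (53.5 ± 22.9 FPKM in secondary and 112 ± 46.4 FPKM in primary spines), hemicentin-1-like LOC121430986 (26.2 ± 11.3 and 27.7 ± 11.7 FPKM in secondary and primary spines), CEPU-1-like LOC121419875 (81.4 ± 11.5 and 74.8 ± 16.1 FPKM in secondary and primary spines) and basigin-like LOC121415924 (50.3 ± 3.21 and 56.3 ± 3.22 FPKM in secondary and primary spines). The last 2 belong to the family list only through a Swiss-Prot match to a hemicentin.

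**Figure D2:**
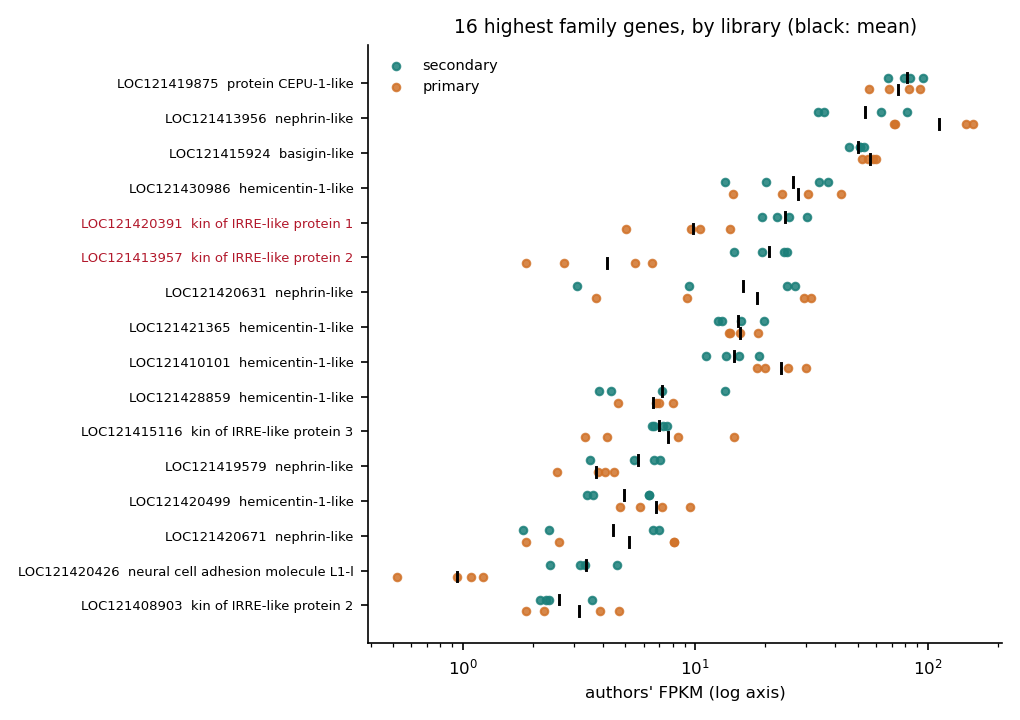
Authors' FPKM (log x axis) of the 16 family genes with the highest mean in secondary spines, with 1 point a library in secondary (upper) and primary (lower) spines and black marks for the means. The 2 kin of IRRE-like genes, in red, reach 24.3 and 20.8 FPKM in secondary spines, against 9.79 and 4.16 FPKM in primary spines, while the other genes shown overlap between the groups, except LOC121420426.

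The other 5 genes named kin of IRRE-like had a lower mean FPKM in secondary spines than the 2 genes described here. This did not hold in primary spines. There kin of IRRE-like 3 LOC121415116, at 7.63 ± 5.15 FPKM, stood above LOC121413957 at 4.16 ± 2.21 FPKM (SD), with overlapping ranges. None of the 3 that could be tested passed (edgeR, with 0 at an unadjusted p below 0.05 and 0 by DESeq2). Of all tested genes 7.81% were called by edgeR, and 3 genes are too few to compare with that share. Kin of IRRE-like 3 LOC121415116 had 15.5, 14.03, 16.3 and 13.8 CPM in secondary libraries 1 to 4, against 8.82, 30.9, 17.6 and 7.16 CPM in primary libraries 1 to 4. Its secondary values fell inside the primary range (log2 fold change -0.11 ± 0.43, edgeR adjusted p = 0.955). The second gene named kin of IRRE-like 2, LOC121408903, had 12.4 ± 3.23 CPM in secondary and 15.2 ± 6.52 CPM in primary spines (log2 fold change -0.29 ± 0.34, edgeR adjusted p = 0.772). A further gene of that name, LOC121414745, had 80 reads in the 4 secondary and 55 in the 4 primary libraries (log2 fold change 0.44 ± 0.61, edgeR adjusted p = 0.818). LOC121419607 (kin of IRRE-like 1, 36 reads in secondary and 30 in primary libraries) and LOC121420399 (kin of IRRE-like 3, 34 and 35 reads in secondary and primary libraries) had too few reads to be tested. In LOC121415116, LOC121408903 and LOC121414745 exon length equals the span of the gene, so they are annotated as a single block without introns, unlike the 2 genes described here. Such genes make up 12.1% of the table.

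Across the family the share of called genes was near that of the whole table. Of the 40 other kin of IRRE, nephrin and hemicentin genes 24 had enough reads to be tested, and of these 2 were called higher and 0 lower in secondary spines (edgeR adjusted p below 0.05). That is 8.33%, against 7.81% of all tested genes called in either direction. At an unadjusted p below 0.05 edgeR had 3 higher and 2 lower, and DESeq2 called 2 higher and 1 lower. Among all 16788 tested genes edgeR had 1869 higher and 1375 lower before adjustment, and DESeq2 called 1400 higher and 767 lower. The median log2 fold change of the 24 genes was -0.10, against -0.03 for all tested genes, and it was 0.05 when libraries were scaled by total count only, a setting that put the median of all genes at 0.14. With the replicate number as a block 3 were higher and 3 lower (25%, against 24.1% of all tested genes).

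The 2 called genes were weakly expressed. Hemicentin-1-like LOC121421380 had 30, 11, 13 and 20 reads in secondary libraries 1 to 4, against 0, 0, 1 and 1 reads in primary libraries 1 to 4. The ratio of secondary over primary level was 33.9, with 95% bounds of 9.07 and 286 for counting error alone. This gene passed the filter on low counts through its secondary libraries alone, so it could only differ in that direction, and its call is not read as support. Under a stricter filter it was not tested, and 1 of the 23 genes then tested was called. LOC121420426, named neural cell adhesion molecule L1-like and matched to hemicentin-1, had 18.3 ± 4.99 CPM in secondary and 5.07 ± 1.63 CPM in primary spines, with no overlap and higher in 4 of 4 animals (log2 fold change 1.85 ± 0.32, edgeR adjusted p = 0.00903). L1-type molecules are neuronal adhesion proteins in vertebrates. The most abundant gene with the product name hemicentin, LOC121430986, averaged 145 ± 62.6 CPM in secondary and 153 ± 64.1 CPM in primary spines and did not pass (log2 fold change -0.07 ± 0.40, edgeR adjusted p = 0.973).

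**Figure D3:**
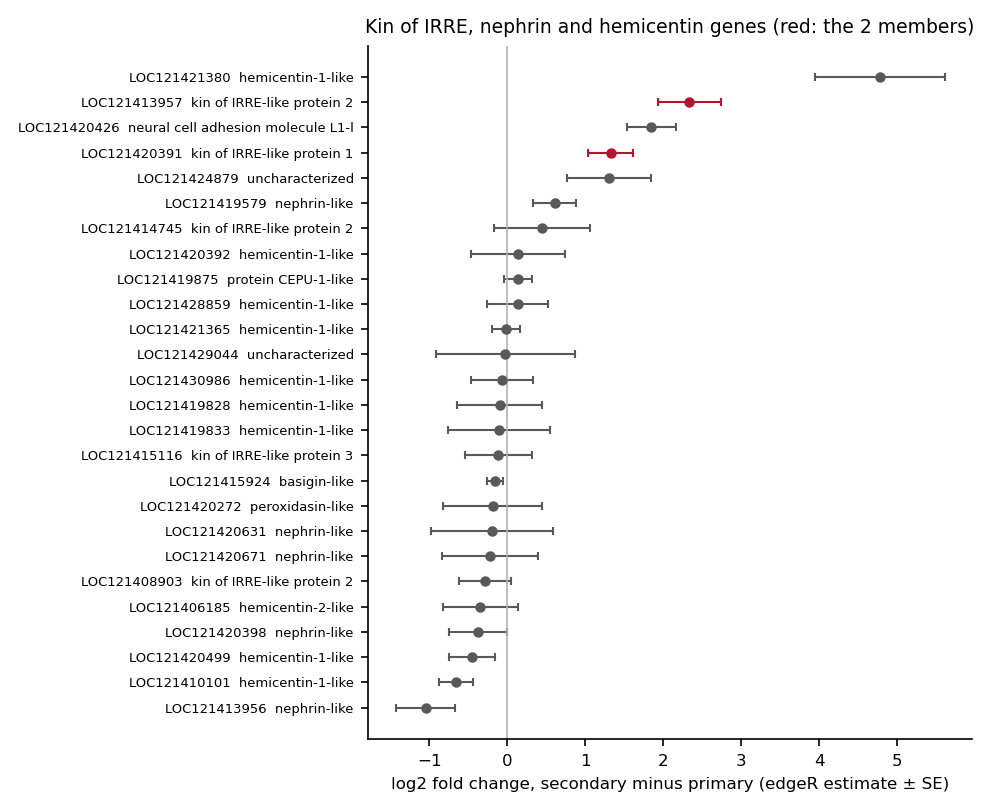
Log2 fold change, secondary minus primary (x axis, points), with its standard error (bars), of the 26 tested genes of the kin of IRRE, nephrin and hemicentin family. The 2 genes described here, in red, lie at 2.33 and 1.32, where they were picked with this contrast known, and the others run from -1.05 for nephrin-like LOC121413956 to 4.78 for hemicentin-1-like LOC121421380.

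Nephrin is the partner of the kin of IRRE proteins, and 9 genes carry the product name nephrin-like. The most abundant, LOC121413956, is on chromosome 4 from 36350713 to 36354751 on the minus strand, as a single block without introns, and lies 35873 bases from LOC121413957. It had 259, 137, 337 and 147 CPM in secondary libraries 1 to 4, against 639, 291, 594 and 297 CPM in primary libraries 1 to 4. Secondary library 3 reached above primary libraries 2 and 4, so the groups overlapped, but within each animal the secondary library was lower, at 0.41, 0.47, 0.57 and 0.50 of the primary level in animals 1 to 4. Its log2 fold change was -1.05 ± 0.38 and did not pass (edgeR adjusted p = 0.165), and with the replicate block it was -1.05 ± 0.10 and called lower (edgeR adjusted p = 0.00057). The FPKM ratio of LOC121413957 over LOC121413956 was 0.394, 0.437, 0.297 and 0.540 in secondary libraries 1 to 4, against 0.0416, 0.0383, 0.0375 and 0.0260 in primary libraries 1 to 4. Each secondary ratio lay above every primary ratio. LOC121413957 was selected on this contrast, so nothing is read from that separation. Deviations from the group means of the 2 genes correlated at 0.866 over the 8 libraries, since animals 1 and 3 were high and animals 2 and 4 low for both in both kinds of spine. Across the groups they ran in opposite directions.

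Among the other nephrin-like genes, LOC121419579 had 12.7 ± 3.53 CPM in secondary and 8.35 ± 1.83 CPM in primary spines (log2 fold change 0.61 ± 0.28, edgeR adjusted p = 0.284), and with the block it was called higher (0.59 ± 0.15, edgeR adjusted p = 0.0230). LOC121420631 and LOC121420671, both matched to the immunoglobulin protein turtle homolog B, differed between animals more than between kinds of spine. LOC121420631 had 56.3, 60.7, 21.6 and 7.03 CPM in secondary libraries 1 to 4, against 66.5, 70.9, 20.7 and 8.55 CPM in primary libraries 1 to 4. LOC121420671 had 17.6, 18.5, 6.36 and 4.83 CPM in secondary libraries 1 to 4, against 21.6, 21.5, 4.96 and 6.94 CPM in primary libraries 1 to 4. Animals 1 and 2 were high and animals 3 and 4 low for both genes, whichever spine was read. Neither passed the test (edgeR adjusted p = 0.959 for LOC121420631 and 0.936 for LOC121420671). LOC121420398, the gene whose Swiss-Prot match is mouse nephrin itself, had 80 reads in secondary and 97 in primary libraries (log2 fold change -0.38 ± 0.37, edgeR adjusted p = 0.711). The 4 remaining nephrin-like genes, LOC121420789, LOC121420252, LOC121420271 and LOC121419588, had 58 or fewer reads in either group and were not tested. The same held for LOC121414409 and LOC121414457, named synaptogenesis protein syg-1-like and matched to rat nephrin, with 30 and 24 reads in secondary and 5 and 10 reads in primary libraries.

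Both genes have other adhesion genes near them in the genome. Next to LOC121413957 on chromosome 4, beyond LOC121413956, lies LOC121413954 (36319157 to 36333412), which is named after SYG-1, the C. elegans relative of the kin of IRRE proteins that marks where synapses form. It had 163, 155, 225 and 246 CPM in secondary libraries 1 to 4, against 238, 209, 321 and 322 CPM in primary libraries 1 to 4. Every animal was lower in secondary spines, and the groups overlapped. The gene did not pass (log2 fold change -0.47 ± 0.21, edgeR adjusted p = 0.266) and was called lower with the block (-0.47 ± 0.08, edgeR adjusted p = 0.00579). Of the nearest genes on each side of LOC121413957, the uncharacterized LOC121412676 had 3 reads in all libraries, and uronyl 2-sulfotransferase-like LOC121413958, an enzyme that sulfates glycosaminoglycans, had 17 ± 2.29 CPM in secondary and 22.3 ± 2.65 CPM in primary spines (log2 fold change -0.39 ± 0.16, edgeR adjusted p = 0.234).

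On chromosome 8 the neighbours of LOC121420391 are closer. Hemicentin-1-like LOC121420392, on the same strand and 2679 bases away, had 7.28 ± 4.77 CPM in secondary and 6.61 ± 4.35 CPM in primary spines (log2 fold change 0.14 ± 0.60, edgeR adjusted p = 0.962). On the other side the potassium channel gene unc-103-like LOC121420390 ends 1205 bases from the end of LOC121420391, on the opposite strand. It had 23.3, 23.9, 21.6 and 25.1 CPM in secondary libraries 1 to 4, against 5.38, 3.89, 8.97 and 8.01 CPM in primary libraries 1 to 4. It was called higher in secondary spines, without overlap (log2 fold change 1.84 ± 0.27, edgeR adjusted p = 0.00484). Its deviations from the group means correlated at -0.597 with those of LOC121420391 over the 8 libraries. The sources used here do not say whether reads were counted by strand, and whether reads past the end of 1 of these genes were counted for the other was not tested.

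**Figure D4:**
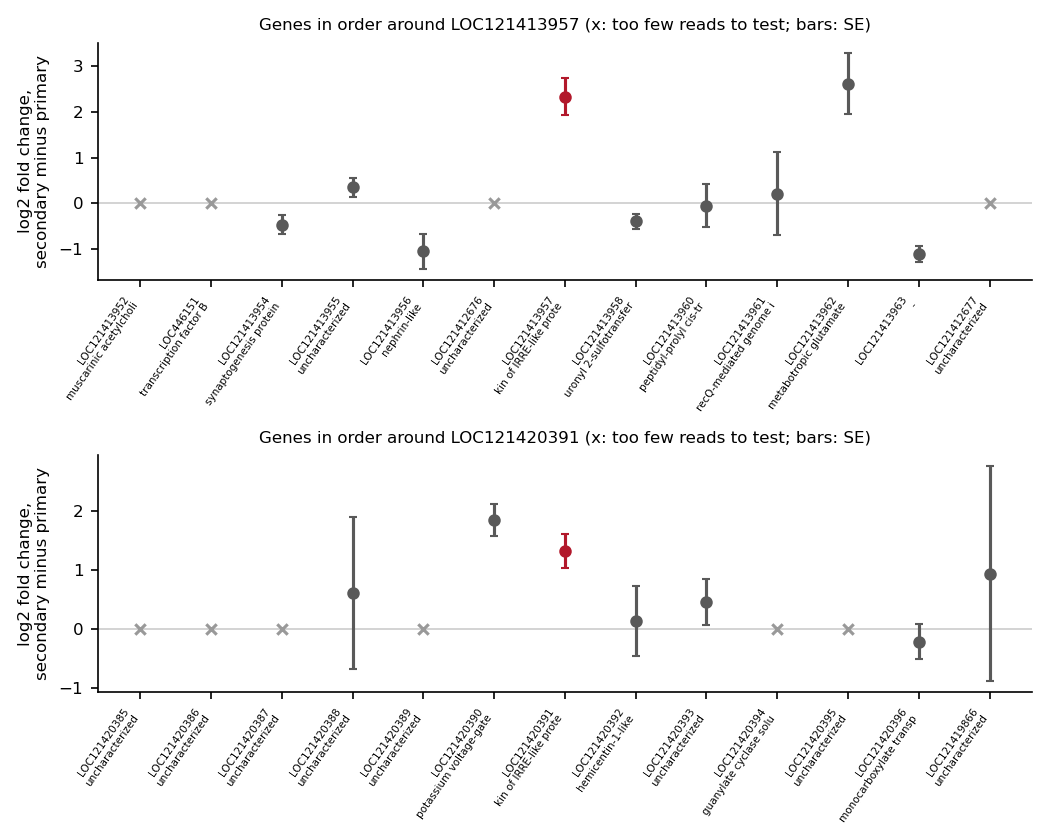
Log2 fold change, secondary minus primary (y axis), with its standard error for the genes in order along the chromosome (x axis, 6 on each side) around LOC121413957 and LOC121420391, both in red, with crosses at 0 for genes with too few reads to test. LOC121413957 at 2.33 has the nephrin-like gene at -1.05 as its second neighbour on the left, and LOC121420391 at 1.32 stands beside the unc-103-like channel gene at 1.84 and the hemicentin-1-like gene at 0.14.

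The family was concentrated on chromosome 8. Of its 42 genes, 24 (57.1%) lie there, against 4.98% of all genes, and LOC121420391 is among them. All 31 genes with the product name synaptogenesis protein syg-2-like, after the C. elegans relative of nephrin, lie on the same chromosome. Of these 31, 7 had enough reads to be tested, and 0 were called (2 higher and 0 lower in edgeR at p below 0.05 before adjustment, 0 by DESeq2). Over all tested genes 7.81% were called, and 7 genes are too few to compare with that share. Their median log2 fold change was 0.68, against -0.03 for all tested genes, and 6 of the 7 lay above 0, against 7964 of all 16788. How far the sequences of these genes resemble each other was not examined, and how reads matching several genes were counted is not stated in those sources. Values of like-named genes are therefore uncertain.

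Other adhesion molecules of the immunoglobulin superfamily were 68 genes by product name. Of 37 tested, 3 were called higher (8.11%, against 5.88% of all tested genes) and 0 lower (against 1.93%). At p below 0.05 before adjustment edgeR had 8 higher and 2 lower, against 1869 and 1375 of all 16788 tested genes. DESeq2 called 4 higher and 0 lower, against 1400 and 767 of all tested genes. A log2 fold change above 0 was found for 30 of the 37, against 7964 of all 16788. The median was 0.37, against -0.03 for all tested genes, and 0.55, against 0.14, with scaling by library size alone. Turtle homolog A-like LOC121420604, of a group that guides dendrites and axons in Drosophila, had 99.7 ± 26.1 CPM in secondary and 36.7 ± 3.81 CPM in primary spines (log2 fold change 1.44 ± 0.19, edgeR adjusted p = 0.00318). The Down syndrome cell adhesion molecule homolog LOC121420178, of a group that lets neurites recognise their own kind, had 19.4 ± 3.3 CPM in secondary and 8.62 ± 1.31 CPM in primary spines (log2 fold change 1.17 ± 0.20, edgeR adjusted p = 0.00881). Limbic system-associated membrane protein-like LOC121419953 had 5.44 ± 2.84 CPM in secondary and 1.39 ± 0.383 CPM in primary spines (log2 fold change 1.95 ± 0.45, edgeR adjusted p = 0.0319), a call lost on leaving out a library in 6 of 8 fits (highest edgeR adjusted p = 0.0918). All 3 lie on chromosome 8, as do 48 of the 68 genes of the list (70.6%). The most abundant gene of the list, neuronal cell adhesion molecule-like LOC121410924, had 1511 ± 104 CPM in secondary and 1996 ± 348 CPM in primary spines and did not pass (log2 fold change -0.40 ± 0.14, edgeR adjusted p = 0.152).

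Inside the cell, kin of IRRE proteins and nephrin signal through adaptors such as Nck, Crk and Dock to the actin nucleators WASP, WAVE and the Arp2/3 complex, and this branching of actin drives fusion in fly myoblasts. Of 50 genes of this kind 42 were tested, with 1 called higher (2.38%, against 5.88% of all tested genes) and 4 lower (9.52%, against 1.93%). The median log2 fold change was -0.20, against -0.03 for all tested genes. The counts changed with the settings. With scaling by library size alone 3 were higher and 0 lower, while over all genes 1225 were higher and 168 lower. The list's median was then -0.04, against 0.14 for all tested genes, so it lay below all genes under both scalings. The total of 5 fell to 0 to 2 in 7 of the 8 fits without 1 library. Over all genes the 1311 calls became 876 to 1125 in those 8 fits. With the block 3 were higher and 11 lower (33.3% called in either direction, against 24.1% of all tested genes). That fit called 12.4% of all tested genes higher and 11.7% lower. Of 7 subunits of the Arp2/3 complex, which makes branched actin, 3 were among the lower genes, and their median log2 fold change was -0.47. With scaling by library size alone 0 were called and the median was -0.31, against 0.14 for all tested genes.

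Arp2/3 subunit 4 LOC121410911 had 137 ± 12.02 CPM in secondary and 199 ± 20 CPM in primary spines (log2 fold change -0.54 ± 0.12, edgeR adjusted p = 0.0246), subunit 5-A-like LOC121428377 had 221 ± 28.2 CPM in secondary and 353 ± 58.6 CPM in primary spines (-0.68 ± 0.15, edgeR adjusted p = 0.0275), and subunit 1A-like LOC121422410 had 531 ± 42.1 CPM in secondary and 841 ± 191 CPM in primary spines (-0.66 ± 0.17, edgeR adjusted p = 0.0490). Myoferlin-like LOC121425408, of a family of membrane repair and fusion proteins, had 1199 ± 79.4 CPM in secondary and 1723 ± 244 CPM in primary spines (-0.52 ± 0.13, edgeR adjusted p = 0.0434). The higher gene was TANC2-like LOC121423896, whose fly relative Rolling pebbles sits beneath Kirre at the fusion site. The deposited Swiss-Prot match of this gene is another ankyrin repeat protein, a subunit of NF-kappa-B. It had 37.4, 18.0, 19.3 and 32.7 CPM in secondary libraries 1 to 4, against 7.53, 6.28, 5.27 and 0.962 CPM in primary libraries 1 to 4 (log2 fold change 2.42 ± 0.55, edgeR adjusted p = 0.0323). The call was lost on leaving out a library in 7 of 8 fits (highest edgeR adjusted p = 0.0874). The calls of the 4 lower genes were lost in 6 or 7 of those 8 fits.

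Markers of skeleton-forming cells did not pass the test. Of 32 genes, among them spicule matrix proteins and carbonic anhydrases, 24 were tested, and 0 were called in either direction (1 higher and 1 lower in edgeR at p below 0.05 before adjustment, 0 by DESeq2), against 7.81% of all tested genes. With 24 genes, 0 calls is not far from that share, and no lack of difference is read from it. Before adjustment edgeR had 1869 higher and 1375 lower among all 16788 tested genes, and DESeq2 called 1400 higher and 767 lower. The median log2 fold change of the 24 was 0.36, against -0.03 for all tested genes. Of the 24, 16 lay above 0, against 7964 of all 16788. The summed level of the list was 880 to 2368 CPM in secondary and 757 to 1905 CPM in primary spines. Single members varied widely between animals. The 30 kDa spicule matrix protein alpha-like gene LOC121406359, of the calcite-binding proteins of the skeleton, had 97.5, 45.2, 427 and 93.6 CPM in secondary libraries 1 to 4, against 51.1, 145, 303 and 19.5 CPM in primary libraries 1 to 4 (log2 fold change 0.36 ± 0.91, edgeR adjusted p = 0.926). The 34 kDa gene LOC121406031 averaged 119 ± 89.8 CPM in secondary and 74.8 ± 73.1 CPM in primary spines (edgeR adjusted p = 0.779). Carbonic anhydrase 14-like LOC121430996, which turns over bicarbonate, had 418 ± 72.3 CPM in secondary and 439 ± 48.1 CPM in primary spines (edgeR adjusted p = 0.901). Without primary library 4, 1 gene of the list was called higher.

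Markers of ciliated cells were higher in secondary spines, as the 2 genes were. Of 28 ciliary markers (axonemal dynein heavy chains, tektins and radial spoke heads) 27 were tested, and 26 were called higher (96.3%, against 5.88% of all tested genes) and 0 lower. Their summed level was 4722 to 6200 CPM in secondary and 806 to 1771 CPM in primary spines. Their log2 fold changes ran from 1.44 to 2.62 with a median of 1.98, so LOC121413957 at 2.33 lay above 23 of the 27 and LOC121420391 at 1.32 below all of them. Over the 8 libraries, log2 CPM correlated with the mean of the list at 0.905 for LOC121413957 and 0.948 for LOC121420391, across both kinds of spine together. The 2 genes were selected on the contrast of secondary and primary spines. Nothing is therefore read from their place among the ciliary fold changes or from these correlations. Deviations from the group means, pooled over both kinds of spine, correlated with those of the list at 0.280 for LOC121413957 and 0.834 for LOC121420391. The pooled value for LOC121420391 did not describe each kind of spine. Secondary library 4 had the highest list mean of the secondary libraries (7.49 log2 CPM) and the lowest level of the gene (6.52). Primary library 4 was the lowest primary library for both (4.62 and 4.59 log2 CPM). The part of the ciliary level in the levels of the 2 genes was not tested. Of the other tested markers, 2 of 18 muscle genes (11.1%) and 1 of 10 nerve genes (10%) were called higher, and 0 lower. Of 50 pigment and immune genes 0 were called higher and 1 lower (2%). Over all tested genes 5.88% were called higher and 1.93% lower.

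**Figure D5:**
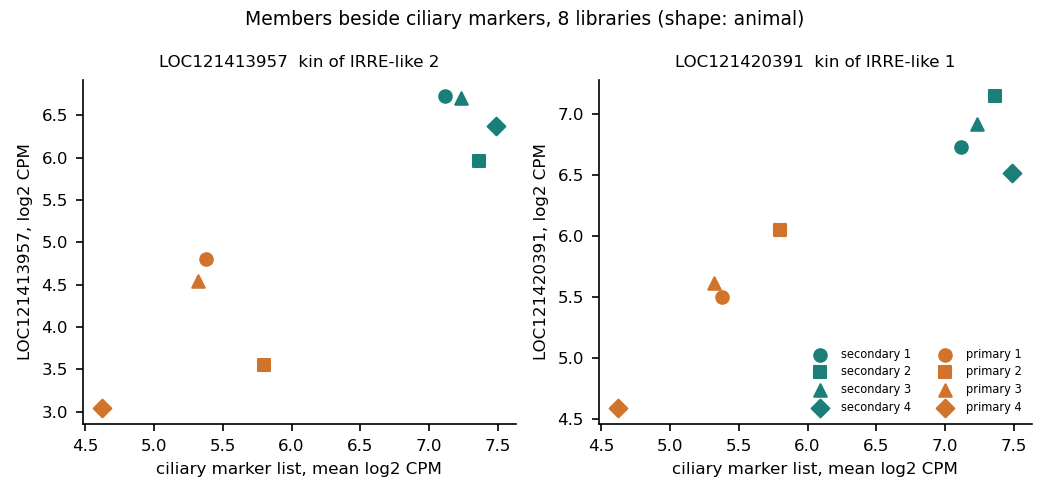
Log2 CPM of LOC121413957 and LOC121420391 (y axes) against the mean log2 CPM of the ciliary marker list (x axes) in the 8 libraries, coloured by kind of spine and shaped by animal. Secondary libraries sit high on both axes. Deviations from the group means, pooled over both kinds of spine, correlated with the list at 0.834 for LOC121420391 and 0.280 for LOC121413957. Among secondary libraries, library 4 has the highest list mean (7.49) and the lowest LOC121420391 level (6.52). Among primary libraries, library 4 is the lowest on both axes (4.62 and 4.59).

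Correlations over the 8 libraries take in the contrast on which the 2 genes were selected, and 26 of 27 tested ciliary markers were called higher. Ciliary names among the closest genes are therefore not read as a link to cilia. Among genes with an informative name, those whose levels ran most like the 2 genes included genes of cilia. For LOC121413957 they were FAM124A-like LOC121429625 (Pearson 0.994 of log2 CPM over the 8 libraries), forkhead box J1-B-like LOC121422253 (0.990), FAM227B-like LOC121422728 (0.987), cytochrome P450 2U1-like LOC121418965 (0.984) and pitchfork-like LOC121421528 (0.981). FoxJ1 is the transcription factor that switches on genes of motile cilia, and pitchfork is a ciliary protein in vertebrates. The FoxJ1 gene had 82.3, 43.6, 94.4 and 72.9 CPM in secondary libraries 1 to 4, against 24.0, 12.96, 26.5 and 10.4 CPM in primary libraries 1 to 4. As for LOC121413957, libraries of animals 1 and 3 were the highest in both kinds of spine.

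For LOC121420391 the closest named genes were death domain-containing 1-like LOC121414294 (0.995), sperm-associated antigen 8-like LOC121415120 (0.990), tubulin beta chain-like LOC121407628 (0.988), translin-associated factor X-interacting 1-like LOC121407525 (0.988) and parkin coregulated gene protein homolog LOC121429487 (0.987). In vertebrates the parkin coregulated protein and sperm-associated antigen 8 are parts of the ciliary doublet. When only deviations from the group means were compared, FAM227B-like (0.983), PLANT CADMIUM RESISTANCE 3-like LOC121426322 (0.981) and FAM124A-like (0.972) came closest to LOC121413957, and the same tubulin gene (0.984), 25S rRNA methyltransferase-like LOC121413263 (0.983) and LOC121414294 (0.981) to LOC121420391. The PLANT CADMIUM RESISTANCE gene shared the animal pattern and had a log2 fold change of 0.40. These likenesses were the highest among those of the 16788 tested genes that carry an informative name, since uncharacterized genes were passed over. They rest on 8 libraries that share 4 animals and are descriptions only.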

How the data were processed

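The authors deposited raw read counts for each gene, all whole numbers, made with HISAT2 2.0.5 and featureCounts per the submitters' processing notes. The authors' FPKM equalled the count over gene length and over 1 constant per library, to within 8.23e-05 reads. Divided by the library's total count, the constant came to 1.06 to 1.08 in secondary and 0.905 to 0.994 in primary libraries. The RefSeq table of Lvar_3.0, used for chromosome numbers, held all 26814 genes at identical positions.

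Counts were tested with edgeR 4.0.16 in R 4.3.3 (glmQLFit with robust estimation, glmQLFTest, TMM scaling, filterByExpr, group as the only term, two-sided), with Benjamini-Hochberg adjustment over 16788 genes and calls at an adjusted p below 0.05. Log2 CPM used a prior count of 2. DESeq2 1.42.0, other scalings and filters, the replicate block and fits leaving out a library were alternatives. P-values of the fit with group alone measure the spread between libraries of a group, which come from separate animals, and those with the block the spread within animals. The fit with group alone does not use the shared animals, so a gene that did not pass there can still differ within each animal. The common biological coefficient of variation was 0.470 with group alone and 0.183 with the block. No 2 libraries of the same group agreed within counting noise. Counts were simulated with the fitted spread, common to all genes, and no animal differences. There the fit with group alone recovered 45 of 100 genes changed by 2 log2 units and 2 of 100 changed by 1. In a simulation with animal differences and less spread, both set by hand, the blocked fit recovered 99 and 87 of 100. The 2 simulations differ in their data as well as in the fit, so they do not compare the fits.

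Per the design text, primary and secondary spines were harvested from 4 shared individuals. After subtracting group means, same-numbered libraries had correlations of 0.733 to 0.811 and differently numbered ones -0.317 to -0.200, so numbers were taken to mark animals.

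The members and lists were chosen with earlier results of these data known. The family list used the whole description field. The other lists used product names, after the names showed that domain text and the lectin echinoidin were caught, and the whole field is an alternative. Named were the 2 genes, all other kin of IRRE and nephrin genes, up to 4 called genes per direction by p and the 2 or 3 of highest FPKM per list, the 5 and 3 most correlated genes with an informative name, and the nearest genes.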

Additional observations from a re-analysis of the deposited data

Results flagged for a closer look

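Among the named genes, 43 were tested in each group of 4 libraries for a value far from the other 3 (gap to the nearest value over the whole range, against Dixon's critical value). Chance flags about 1 in 20 groups, and 3 of 86 were found. Kin of IRRE-like 2 LOC121408903 had 17.3 CPM in secondary library 1, above 10.4 to 11.2 CPM in the other secondary libraries. Spicule matrix gene LOC121406359 had 427 CPM in secondary library 3, above 45.2 to 97.5 CPM in the others. Myoferlin-like LOC121425408 had 1358 CPM in primary library 2, below 1826 to 1863 CPM in the others.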

How the results depend on the processing

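The log2 fold changes of the 2 genes stayed within 1 standard error under all 21 alternatives, at 2.09 to 2.64 for LOC121413957 and 1.11 to 1.55 for LOC121420391. With the replicate block they were 2.44 ± 0.23 and 1.39 ± 0.14. Counts of calls depended on the fit, and the cause was not tested. Over all genes there were 1311 calls (75.3% higher), 4041 with the replicate block (51.4% higher), 2167 with DESeq2 (64.6% higher), 4096 with DESeq2 and the block, and 2379, 2608, 2864 and 3221 with the block and without animal 1, 2, 3 or 4. Scaling by library size gave 87.9% higher. In the kin of IRRE, nephrin and hemicentin list the 2 calls became 6 with the block by either tool, 4 to 5 with the block and without 1 animal, and 1 under the strict filter (at least 10 reads in 4 libraries and 100 in all). In the immunoglobulin list the 3 calls became 11 with the block, 14 with DESeq2 and the block, and 5, 9, 8 and 6 with the block and without animal 1, 2, 3 or 4. In the adaptor list the 5 calls became 14 with the block by either tool, 10 with DESeq2, 10 with the block and without animal 4, 3 with library size scaling, 3 with no filter, and 0 to 4 without 1 library. The skeletogenic list had 0 calls, 2 with DESeq2 and the block, 1 with the block and without animal 2, 3 or 4, 0 to 1 without 1 library, and 2 when the whole description field was searched. That search, chosen after seeing the data, gave 49 calls in place of 30 among markers of other cell types. Of the 5 genes most like each gene, rank correlation kept 3 for LOC121413957 and 1 for LOC121420391. Genes with few reads are limited by depth.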
